A study of Mus musculus with 6 samples.

Results

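The genes described here are 7 genes of MHC class II antigen presentation, Cd74, H2-Aa, H2-Ab1, H2-Eb1, H2-DMa, H2-DMb1 and Ciita, taken by symbol from the 55573 genes of the raw count table and followed through all 6 RNA-seq libraries of the study. All 7 were found, and 6 of them reached 1 CPM (a count relative to the scaled total of its library) in at least 2 libraries and entered the tests with 12275 genes in all, while Ciita did not. The genes were picked because their levels in the comparisons with control were already known to be high, so those comparisons are given as descriptions, without tests of single members.

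The study asked how the transcriptome of adult-born cells in the bulb of the mouse changes when their excitability is lowered by overexpression of a K+ channel. Male C57BL/6 mice, 3 months old, received a lentivirus in the rostral migratory stream, the route along which young neurons enter the bulb, and bulbs were taken 9 days later. Cells with the signal of Twitch-2B, a fluorescent Ca2+ indicator that every vector carried, were sorted by flow cytometry after PBS perfusion. Each library came from a pool of 2 mice and at least 3000 cells. In the control group the vector carried Twitch-2B with H2B-mCherry, a nuclear red label. In the Kv1.2 group it carried Kv1.2 from human cDNA with Twitch-2B, and in the Kir2.1 group Kir2.1 from mouse cDNA with Twitch-2B. Every group held 2 libraries. All vectors were built on the FUGW backbone, whose ubiquitin promoter is active in many cell types, and the sort selected for the indicator and not for a neuronal marker.

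Library totals ran from 8871595 to 13632970 counts, and the log2 CPM of the 2 libraries of one group correlated at 0.533 to 0.626 across genes, which are not independent replicates. The counts of the targeted channels did not separate the groups as labelled. Kcna2, the gene of Kv1.2, had 3 and 451 counts in control, 24 and 5 in the libraries labelled Kv1.2, and 3 and 1 in those labelled Kir2.1, and how far reads of the human insert are counted to the mouse gene was not tested. Kcnj2, the gene of Kir2.1, had 87 and 89 counts in control, 221 and 1 in the libraries labelled Kv1.2, and 64 and 312 in those labelled Kir2.1. Group names below therefore stand for libraries labelled so, and each direction rests on those labels. Against the name adult-born cells, 10 microglia markers summed to between 2380 and 47182 CPM in the 6 libraries. The 8 neuroblast and neuron markers summed to 301 and 368 CPM in control. In Kv1.2 they summed to 0.0801 and 46.6 CPM and in Kir2.1 to 12.1 and 23.5 CPM, both below control. Dcx, the defining marker of neuroblasts, had 0 counts in Kv1.2 replicate 1 and in both Kir2.1 libraries. In such bulk samples, fewer cells of a type and less RNA per cell cannot be told apart.

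MHC class II molecules display peptides from the endosomal pathway to CD4+ T cells. An alpha and a beta chain, encoded in the mouse by H2-Aa with H2-Ab1 and by an E alpha gene with H2-Eb1, assemble in the endoplasmic reticulum with the invariant chain, the product of Cd74. The invariant chain guides them to endosomes and is cut there by cathepsins, and the H2-DM heterodimer, encoded by H2-DMa and H2-DMb1, exchanges its last fragment for a peptide. CIITA, the product of Ciita, is the coactivator without which these genes are hardly transcribed, and interferon-gamma induces it. In the brain, class II is found at low level in resting microglia, at higher level in activated microglia, and in border-associated macrophages and dendritic cells. C57BL/6 mice carry a defective E alpha gene, H2-Ea-ps, which had 0 counts in all 6 libraries.

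The libraries labelled Kv1.2 held the highest levels of the class II genes, followed by those labelled Kir2.1. The counts of the 7 genes together were 1948 and 589 in control, 242530 and 65787 in Kv1.2, and 4683 and 14210 in Kir2.1. As a percentage of all counts this was 0.0196% and 0.00623% in control, 1.78% and 0.510% in Kv1.2, and 0.0528% and 0.125% in Kir2.1. The 3 groups did not overlap in this sum, and Kv1.2 replicate 1 stood above replicate 2 by 3.63-fold in summed CPM.

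**Figure D1:**
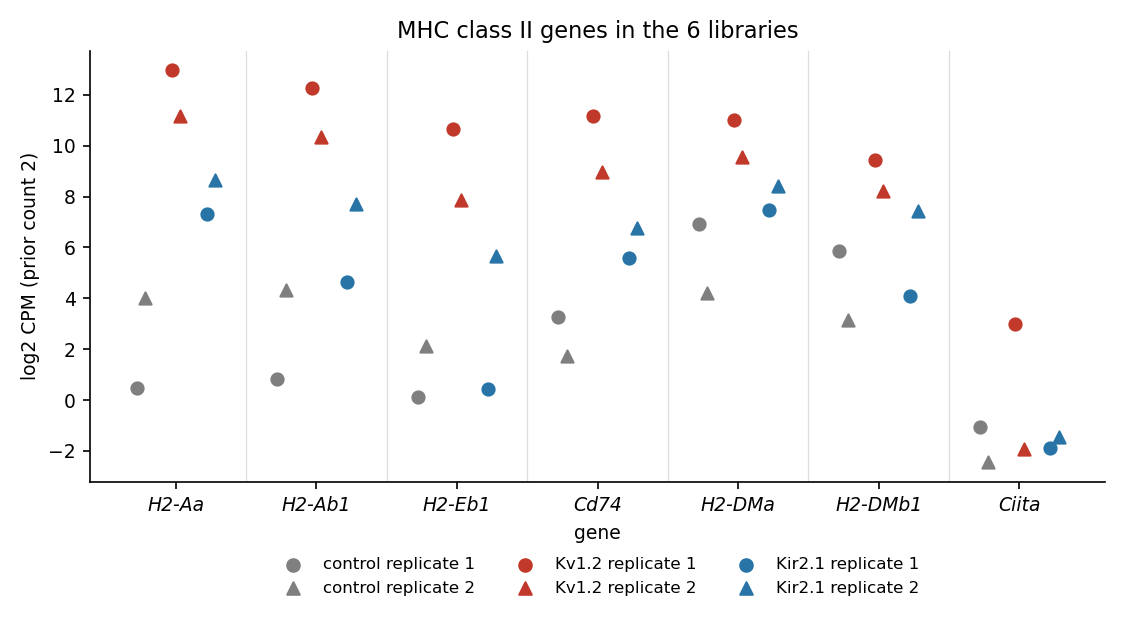
Level of each of the 7 class II genes (x axis) as log2 CPM with a prior count of 2 (y axis), with 1 point per library. Colours stand for the groups and shapes for the replicate numbers. Kv1.2 replicate 1 is the highest library for all 7 genes, and Ciita lies near the lower end in every other library.

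H2-Aa, the alpha chain of the A molecule, was at 1.19 and 16.2 CPM in the control libraries, 7955 and 2269 CPM in Kv1.2, and 158 and 405 CPM in Kir2.1. The groups did not overlap, and the lower Kv1.2 library stood 140-fold above the higher control library and 5.61-fold above the higher Kir2.1 library. H2-Ab1, which encodes its beta chain, measured 1.59 and 19.9 CPM in control, 4860 and 1309 CPM in Kv1.2, and 24.8 and 208 CPM in Kir2.1. The order was the same without overlap, but Kir2.1 replicate 1 was only 1.25-fold above the higher control library. H2-Eb1, the beta chain of the E molecule, had 0.896 and 4.19 CPM in control, 1593 and 233 CPM in Kv1.2, and 1.18 and 50.5 CPM in Kir2.1. Here the Kir2.1 libraries spanned the control, since replicate 1 with 13 counts lay between the control libraries with 9 and 35 counts. An antisense gene, Gm20513, overlaps H2-Eb1 and had 220 counts in Kv1.2 replicate 2, against 2858 counts of H2-Eb1, and at most 1 count in the other libraries.

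Cd74, the invariant chain, was at 9.56 and 3.11 CPM in control, 2281 and 501 CPM in Kv1.2, and 47.7 and 108 CPM in Kir2.1. No group overlapped another, and Kir2.1 replicate 2 stood 2.26-fold above replicate 1. It differed from the A and E chains in control, where replicate 1 was above replicate 2.

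H2-DMa, the alpha chain of the peptide exchange factor, was the most abundant member in control replicate 1. It measured 122 and 18.4 CPM in control, 2043 and 747 CPM in Kv1.2, and 175 and 344 CPM in Kir2.1, again without overlap. H2-DMb1, which encodes the beta chain, had 58.0 and 8.74 CPM in control, 691 and 296 CPM in Kv1.2, and 16.9 and 172 CPM in Kir2.1. Both Kv1.2 libraries were above the rest, while Kir2.1 replicate 1 fell between the control libraries. H2-DMb1 has a neighbouring near-copy, H2-DMb2, and the authors removed reads that aligned to several places, so reads common to both copies are in neither count.

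Ciita was close to the limit of detection everywhere but in 1 library. It had 3 and 0 counts in control, 98 and 1 in Kv1.2, and 1 and 2 in Kir2.1, or 7.85 CPM in Kv1.2 replicate 1 and at most 0.299 CPM in the others. A count of 0 allows up to 3 counts, which is 0.359 CPM in control replicate 2. Thus the coactivator was above that range only in the library with the highest class II level, and the groups overlapped. Dexi, which overlaps Ciita on the opposite strand, had 5 counts in that library and 203 and 105 in Kir2.1.

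In the fit, the log2 fold change of Kv1.2 against control was 9.20 (SE 1.64) for H2-Aa, 8.17 (SE 1.81) for H2-Ab1, 8.49 (SE 2.16) for H2-Eb1 and 7.77 (SE 1.22) for Cd74. The H2-DM genes were lower on this scale, at 4.31 (SE 1.09) for H2-DMa and 3.89 (SE 1.38) for H2-DMb1. The median of the 6 members tested was 7.97, beside -0.12 for all 12275 genes. Both Kv1.2 libraries lay above both control libraries for 6 of the 7 members, beside 19.3% of all genes tested, and since this comparison was known when the members were picked nothing is read from the count. Without Kv1.2 replicate 1 the median was 6.40, and without Kv1.2 replicate 2 it was 8.64. The control libraries moved single members: without control replicate 1 H2-DMa was at 6.13 and H2-DMb1 at 5.71, and without control replicate 2 H2-Aa was at 11.96 and H2-Ab1 at 10.82.

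For Kir2.1 against control the log2 fold changes were smaller, at 5.02 (SE 1.36) for H2-Aa, 3.44 (SE 1.46) for H2-Ab1, 3.35 (SE 1.72) for H2-Eb1 and 3.61 (SE 1.01) for Cd74. H2-DMa stood at 1.88 (SE 0.988) and H2-DMb1 at 1.50 (SE 1.26). The median was 3.39, beside 0.04 for all genes, and both Kir2.1 libraries lay above both control libraries for 4 of the 7 members, beside 19.9% of all genes. This median rested on Kir2.1 replicate 2: without it the value was 1.25, and H2-Eb1 and H2-DMb1 changed sign, to -1.12 and -0.98. Without Kir2.1 replicate 1 the median was 4.16. Without control replicate 1 H2-DMa was at 3.72 and H2-DMb1 at 3.35, and without control replicate 2 H2-Aa was at 7.79 and H2-Ab1 at 6.10. Both comparisons share the control libraries.

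**Figure D2:**
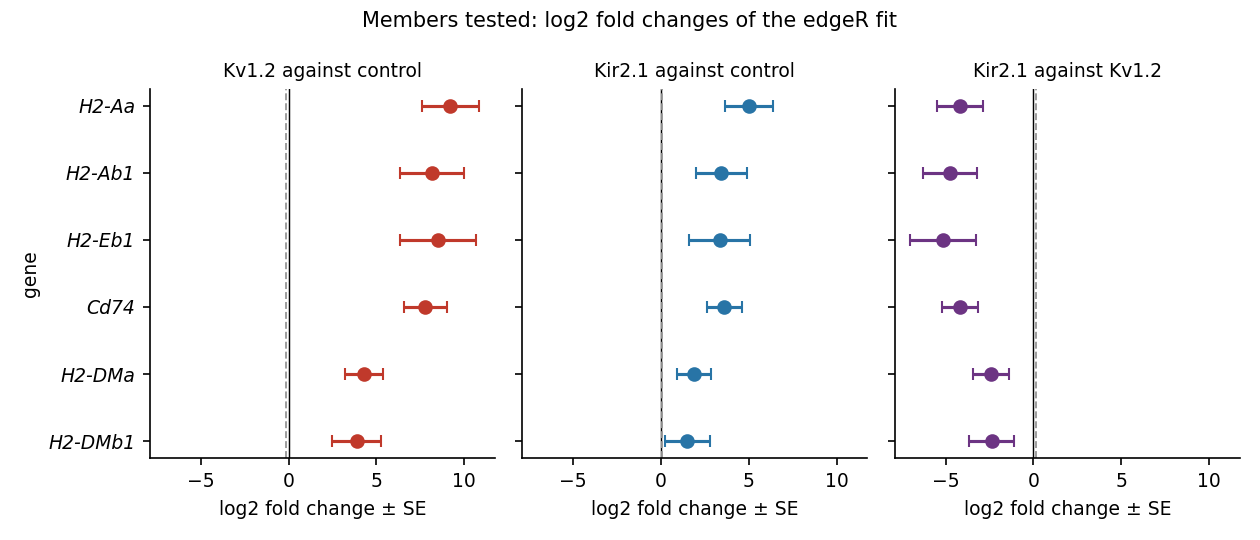
Log2 fold changes (x axis) of the 6 class II genes tested (y axis) in the 3 comparisons of the edgeR fit, with bars of 1 standard error. The dashed line is the median of all 12275 genes. H2-Aa, H2-Ab1, H2-Eb1 and Cd74 lie farther from 0 than the H2-DM genes in each panel, with bars that overlap in part.

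The comparison of the channels with each other was not the one on which the genes were picked, although it uses the same Kv1.2 libraries, so a choice made on high Kv1.2 levels also favours a lower Kir2.1 value. All 6 members tested were lower in Kir2.1. The log2 fold change was -4.16 (SE 1.03) for Cd74, -4.18 (SE 1.31) for H2-Aa, -4.73 (SE 1.55) for H2-Ab1 and -5.14 (SE 1.85) for H2-Eb1. H2-DMa measured -2.43 (SE 1.01) and H2-DMb1 -2.38 (SE 1.30), with a median of -4.17 beside 0.13 for all genes. With 2 libraries a group none of the 6 passed edgeR's quasi-likelihood test after Benjamini-Hochberg adjustment over all genes, with an adjusted p of 0.739 for 5 of them and 0.741 for H2-DMb1. None of the 12275 genes passed it, a background of 0%. The unadjusted p of the same edgeR test was 0.00484 for Cd74, 0.0147 for H2-Aa, 0.0179 for H2-Ab1, 0.0271 for H2-Eb1, 0.0462 for H2-DMa and 0.108 for H2-DMb1. Thus 5 of 6 were under 0.05 on the lower side, where 2.05% of all genes were. Since the choice of the members favours this direction, nothing is read from that count.

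DESeq2, run as an alternative, called 4 of the 6 lower in Kir2.1, with an adjusted p of 0.00575 for Cd74, 0.0178 for H2-Ab1, 0.0226 for H2-Eb1 and 0.0250 for H2-Aa, and it called 1.76% of all genes in that direction. Across the alternatives the adjusted p of Cd74 ran from 0.000269 to 1. Both Kir2.1 libraries lay below both Kv1.2 libraries for 6 of 7 members, beside 16.7% of all genes. The exception was Ciita, of which Kv1.2 replicate 2 held 1 count. Without Kv1.2 replicate 1 the median of the members was -2.85, and without Kir2.1 replicate 2 it was -4.96. The arrangement of control below Kir2.1 below Kv1.2 with no overlap was held by Cd74, H2-Aa, H2-Ab1 and H2-DMa, and by 1.5% of all genes tested. The choice of the members, on high levels against control, favours each of these counts, and nothing is read from them.

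Replicates of a group differed widely. In Kv1.2, replicate 1 exceeded replicate 2 in every member, by 2.33-fold for H2-DMb1 up to 6.85-fold for H2-Eb1 and from 1 count to 98 for Ciita, and it was the highest of the 6 libraries in all 7 members, beside 14.7% of all genes. In Kir2.1, replicate 2 exceeded replicate 1 by 1.97-fold for H2-DMa up to 42.9-fold for H2-Eb1. The control libraries did not share a direction: H2-Aa, H2-Ab1 and H2-Eb1 were 13.5-fold, 12.5-fold and 4.68-fold higher in replicate 2, whereas Cd74, H2-DMa and H2-DMb1 were at 0.326, 0.151 and 0.151 of replicate 1.

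Levels of different genes were compared as CPM per kb of gene length. In Kv1.2 the order began with H2-Aa, at 2095 and 597 CPM per kb, and H2-Ab1, at 1893 and 510 CPM per kb. Cd74 followed at 1359 and 298 CPM per kb, and H2-Eb1, H2-DMa and H2-DMb1 lay between 120 and 819 CPM per kb. Neighbours in that order overlapped between their replicates, except that Ciita was below all others in each library. In control replicate 1 the class II transcripts were nearly all of the H2-DM pair: H2-DMa made up 46.1% and H2-DMb1 44.7% of the summed CPM per kb, while H2-Aa, H2-Ab1 and H2-Eb1 each made up less than 1%. Control replicate 2 was more even, with 16.0% for H2-Aa, 29.1% for H2-Ab1, 20.1% for H2-DMa and 19.6% for H2-DMb1.

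The make-up of both Kv1.2 libraries was similar for H2-Aa, H2-Ab1 and Cd74 although their sums differed. H2-Aa made up 29.2% and 31.1%, H2-Ab1 26.4% and 26.6%, and Cd74 18.9% and 15.6%. The share of H2-Eb1 differed more, at 11.4% in Kv1.2 replicate 1 and 6.24% in replicate 2. The H2-DM pair made up little there, with H2-DMa at 8.26% and 11.3% and H2-DMb1 at 5.73% and 9.18%. In Kir2.1, H2-DMa made up 35.9% and 20.8%, and the beta chains were uneven, since H2-Ab1 was at 6.84% and 16.9% and H2-Eb1 at 0.429% and 5.42%. The alpha chain H2-Aa stood to its beta chain H2-Ab1, per kb, at 1.11 and 1.17 in Kv1.2 and at 1.32 in Kir2.1 replicate 2, but at 4.32 in Kir2.1 replicate 1 and at 0.507 and 0.550 in control. H2-DMa and H2-DMb1 stood within 0.973 to 1.44 of each other in 5 libraries and at 5.04 in Kir2.1 replicate 1. In that library H2-Ab1, at 274 counts, and H2-DMb1, at 187 counts, were thus low beside the genes of their alpha chains. H2-Eb1 had 13 counts there.

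**Figure D3:**
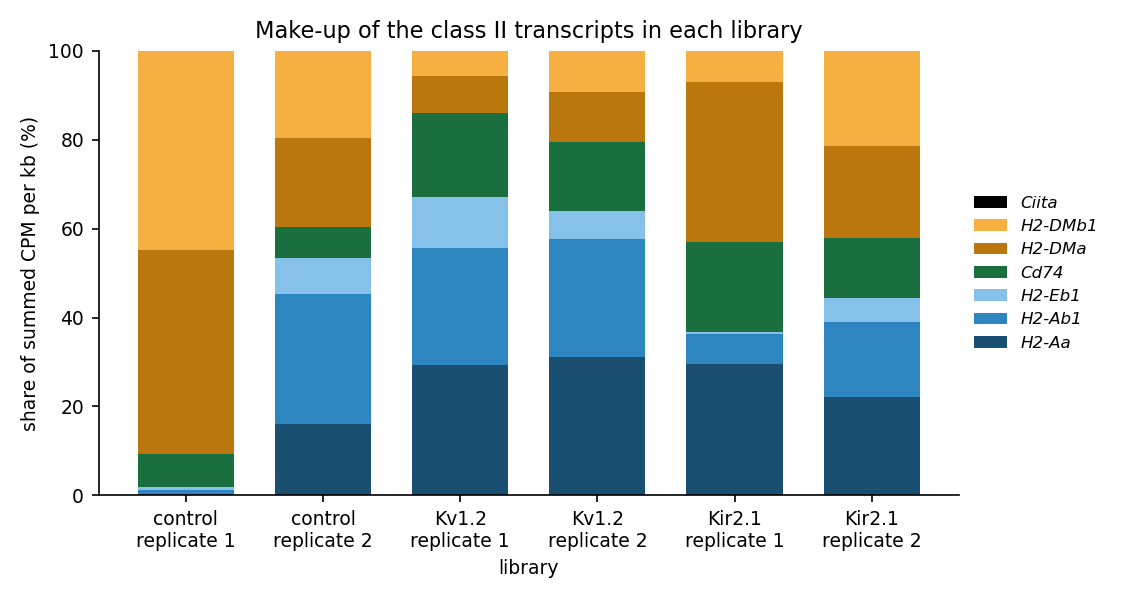
Share of each class II gene (colours) in the summed CPM per kb of the 7 genes (y axis, in percent) for each library (x axis). The H2-DM pair fills most of control replicate 1, and H2-Aa with H2-Ab1 makes up more than the H2-DM pair in both Kv1.2 libraries.

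Over the 6 libraries each tested member followed the mean log2 CPM of the other 5, with Pearson's r from 0.857 for H2-DMb1 to 0.963 for Cd74. These are 6 points that share libraries and scaling, and they are given as a description. Of 7350 other genes with a mean of at least 10 CPM, 76 (1.03%) had an r over 0.9 with the mean of the members. The 10 with the highest r were Akr1a1, Eif2b3, Rnf215, Plgrkt, Bst2, Dhx30, Pcna, Spcs2, Atp6v0c and Tgtp2, from 0.992 down to 0.957. Values are given for Akr1a1, Bst2 and Tgtp2, at ranks 1, 5 and 10, and the others are only named. Akr1a1 was at 147 and 148 CPM in control, 541 and 360 CPM in Kv1.2, and 218 and 308 CPM in Kir2.1. Bst2, the antiviral protein tetherin, was at 15.6 and 15.7 CPM in control, 240 and 73.6 CPM in Kv1.2, and 40.3 and 52.1 CPM in Kir2.1. Tgtp2, an interferon-inducible GTPase with a near-identical copy, had 0.697 and 9.34 CPM in control, 993 and 403 CPM in Kv1.2, and 4.44 and 50.5 CPM in Kir2.1, so that Kir2.1 replicate 1 fell within the control.

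Among the members, H2-Aa (chr17:34282744-34287823), H2-Ab1 (chr17:34257689-34269419), H2-Eb1 (chr17:34305867-34316674), H2-DMa (chr17:34119541-34139101) and H2-DMb1 (chr17:34153072-34160230) lie within 197 kb of the MHC on chromosome 17 of the GRCm38 build. H2-Aa is on the minus strand and the other 4 on the plus strand, and the counts are of whole genes over their exons. Ciita lies at chr16:10480059-10528418. Class II promoters are known for an upstream S, X and Y box, read by RFX, CREB and NF-Y proteins with CIITA, and the sequences below are shown because these members had like patterns over the libraries. RefSeq entries on GRCm38.p6 were found for 8 of 12 class II genes, 4 of them members. The window is 120 bases before to 10 bases from the start, and capitals mark ATTGG, the core of the Y box, TGACGTCA, the cAMP response element that CREB binds, and ATGATGC, a run picked after the sequences were read, each on either strand. The windows are at chr17:34287814-34287943 on the minus strand for H2-Aa and, on the plus strand, at chr17:34305747-34305876 for H2-Eb1, chr17:34153071-34153200 for H2-DMb1 and chr17:34238785-34238914 for H2-Ob, which is no member.
H2-Aa: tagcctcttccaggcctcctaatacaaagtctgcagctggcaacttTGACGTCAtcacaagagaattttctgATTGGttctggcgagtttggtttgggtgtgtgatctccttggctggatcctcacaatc
H2-Eb1: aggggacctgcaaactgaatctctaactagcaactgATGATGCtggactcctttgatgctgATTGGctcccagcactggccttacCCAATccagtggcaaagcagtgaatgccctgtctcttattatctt
H2-DMb1: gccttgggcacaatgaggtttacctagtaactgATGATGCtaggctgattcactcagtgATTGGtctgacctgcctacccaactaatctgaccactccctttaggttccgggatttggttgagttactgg
H2-Ob: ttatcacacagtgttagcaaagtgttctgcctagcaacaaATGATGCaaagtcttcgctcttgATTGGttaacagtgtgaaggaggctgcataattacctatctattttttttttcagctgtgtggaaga

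ATTGG was present on the strand of the gene in H2-Aa, H2-Eb1 and H2-DMb1, beginning 48, 59 and 61 bases before the start, and H2-Eb1 held a second match on the other strand. It was also in H2-Oa, H2-Ob, H2-DMb2 and H2-Eb2, so that 7 of the 8 genes had it, beside 22.3% of 32851 RefSeq promoter windows of this length. The exception was H2-DMa, of which neither of the 2 starts listed held it in its window. These windows lie at chr17:34122712-34122841 and chr17:34125398-34125527, and the gene has 8 annotated transcripts. Any other start of H2-DMa was not searched, so a lack of the Y box in this gene is not shown. TGACGTCA was found in H2-Aa, 74 bases before the start, and in 1.37% of all windows. ATGATGC stood in H2-Eb1, H2-DMb1, H2-DMb2 and H2-Ob, with 16 to 19 bases between it and the Y box, and in 1.09% of all windows. CAGATG, a short stretch searched for as part of the X box consensus, was in none of the 8 genes and in 7.77% of all windows. An exact search for so short a stretch cannot show whether an X box is present. H2-Ob, with ATTGG and ATGATGC like H2-DMb1, encodes the beta chain of H2-DO, the inhibitor of H2-DM, and it was at 46.0 and 6.46 CPM in control, 110 and 94.3 CPM in Kv1.2, and 34.3 and 62.9 CPM in Kir2.1, with a log2 fold change of 1.96 (SE 1.17) in Kv1.2 against control. A match in these windows is a description of letters and not a site of binding.

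The other genes of the pathway were read from lists of 59 genes, of which 51 were tested. None passed edgeR's quasi-likelihood test after adjustment in any comparison, as for all genes. At an unadjusted p under 0.05, 10 were higher and 0 lower in Kv1.2 against control, beside 3.23% and 8.81% of all genes. In Kir2.1 against control 3 were higher and 1 lower, beside 3.25% and 6.15%, and in Kir2.1 against Kv1.2 0 were higher and 6 lower, beside 4.02% and 2.05%. With DESeq2 and adjustment 9 were higher in Kv1.2 against control (2.6% of all genes), 2 were higher in Kir2.1 against control (2.61%) and 2 were lower in Kir2.1 against Kv1.2 (1.76%). These counts moved with single libraries: without control replicate 1, in a check added after the data had been seen, the higher genes were 24 in Kv1.2 against control and 21 in Kir2.1 against control, and without Kv1.2 replicate 1 4 were higher in Kv1.2 against control and 0 were lower in Kir2.1 against Kv1.2.

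H2-Oa, the alpha chain of H2-DO, was at 41.6 and 6.58 CPM in control, 390 and 341 CPM in Kv1.2, and 69.8 and 0.0906 CPM in Kir2.1. Kir2.1 replicate 2, which held more of every class II member than replicate 1, had a single count of it. H2-DMb2 was detected above 1 CPM in control replicate 2 with 9.70 CPM and in Kv1.2 replicate 1 with 50.0 CPM, and had 0 counts in Kv1.2 replicate 2 and in Kir2.1 replicate 2, unlike its near-copy H2-DMb1. None of the 3 genes of this list that were tested had an unadjusted p under 0.05 by the edgeR test in any comparison.

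Of the 7 genes of the proteins that bind the promoter boxes, none was at an unadjusted edgeR p under 0.05 in Kv1.2 against control, and the median log2 fold change was 0.23. The most abundant of them were Creb1, Rfxank and Nfyb, with means of 39.3, 33.0 and 19.7 CPM over the libraries. Creb1, the gene of a factor at the X box, had 59.0 and 44.4 CPM in control, 51.0 and 0.977 CPM in Kv1.2, and 33.6 and 47.0 CPM in Kir2.1. Kv1.2 replicate 2, which held high class II levels, was thus the lowest library for it. Rfxap, named after its values were seen, had 3 and 81 counts in control, 191 and 42 in Kv1.2, and 0 in both Kir2.1 libraries. It was the 1 gene of the list at an unadjusted edgeR p under 0.05 in both comparisons with Kir2.1. Of all genes, 6.15% were lower at that threshold in Kir2.1 against control and 2.05% in Kir2.1 against Kv1.2.

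Among the genes that lead to Ciita, Ifngr1, a chain of the interferon-gamma receptor, was at 627 and 58.4 CPM in control, 1037 and 691 CPM in Kv1.2, and 616 and 1373 CPM in Kir2.1. The Kir2.1 libraries overlapped both other groups, and the Kv1.2 libraries lay above control. Irf8, a factor of myeloid cells, ran from 3.47 to 232 CPM without the order of the class II genes, at an r of 0.183 with the mean of the members. Ifng, the gene of interferon-gamma itself, had 2 counts in Kv1.2 replicate 2 and 0 in the other libraries.

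Interferon-gamma response genes, 5 of which were tested, had log2 fold changes with a median of 7.63 in Kv1.2 against control, 2.05 in Kir2.1 against control and -2.37 in Kir2.1 against Kv1.2. At an unadjusted edgeR p under 0.05, 3 were higher in the first comparison, 1 in the second, and 3 were lower in the third. The shares of all genes were 3.23%, 3.25% and 2.05%. The list was chosen with earlier results of these data known, so nothing is read from these counts. Gbp2, a guanylate-binding protein, was at 0.299 and 0.120 CPM in control, 447 and 79.7 CPM in Kv1.2, and 54.9 and 46.7 CPM in Kir2.1. Its groups kept the order of the class II genes. Iigp1, an interferon-inducible GTPase, had 3.88 and 4.43 CPM in control, 305 and 23.3 CPM in Kv1.2, and 24.5 and 9.96 CPM in Kir2.1, so that Kir2.1 overlapped Kv1.2 but not the control. Cxcl10, a chemokine, overlapped between Kir2.1 and control.

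MHC class I presents peptides of the cytosol. The 7 genes of the list, whose sum B2m dominates, stood at a ratio of 1.10 between Kv1.2 replicates 1 and 2, where the class II members differed 3.63-fold, but Tap1 and Tap2, the peptide transporter genes, named after their values were seen, differed 3.95-fold and 9.51-fold between these libraries. The median log2 fold change was 3.48 in Kv1.2 against control, 1.74 in Kir2.1 against control and -1.08 in Kir2.1 against Kv1.2. At an unadjusted edgeR p under 0.05, 4 were higher, 1 was higher and 1 was lower, beside 3.23%, 3.25% and 2.05% of all genes. This list too was chosen with earlier results known. B2m, the light chain of class I, was at 10196 and 1646 CPM in control, 29313 and 27199 CPM in Kv1.2, and 8186 and 18011 CPM in Kir2.1, and H2-D1, a heavy chain, had 357 and 44.1 CPM in control, 2459 and 2018 CPM in Kv1.2, and 498 and 841 CPM in Kir2.1. H2-K1, the other classical heavy chain, measured 104 and 54.4 CPM in control, 1757 and 1482 CPM in Kv1.2, and 529 and 693 CPM in Kir2.1. Its groups did not overlap, and its r with the mean of the members was 0.92.

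The proteases that cut the invariant chain and antigens were abundant in all libraries. Ctss, the cathepsin S of invariant chain processing, was at 16382 and 1860 CPM in control, 33054 and 29305 CPM in Kv1.2, and 12579 and 23980 CPM in Kir2.1, with Kir2.1 overlapping the control. Ctsl and Ctsd, the genes of cathepsins L and D, ran from 192 to 2475 CPM and from 275 to 2400 CPM, with the lowest level in control replicate 2. Of the 8 genes of this list, 1 was at an unadjusted edgeR p under 0.05, higher in Kv1.2 against control, where 3.23% of all genes were. Cd86, a costimulatory ligand of T cells, had 395 and 45.3 CPM in control, 948 and 505 CPM in Kv1.2, and 674 and 614 CPM in Kir2.1. Both channel groups were above control, and they overlapped each other. Icosl, the ligand of ICOS, was lower, at up to 16.4 CPM, and Cd274, the gene of PD-L1, had 0 counts in both control libraries, 9.69 and 21.7 CPM in Kv1.2 and at most 0.0906 CPM in Kir2.1.

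Counts of other cell types were set beside the class II genes. For each 1000 counts of the 10 microglia markers, the 7 class II genes had 7.94 and 29.6 counts in control, 566 and 148 in Kv1.2, and 18.8 and 27.3 in Kir2.1. Both Kv1.2 libraries were above all others on this scale, which needs no scaling between libraries, whereas both Kir2.1 values lay between those of the control libraries. The log2 ratio of the group values was 4.24 for Kv1.2 against control, 0.56 for Kir2.1 against control and -3.68 for Kir2.1 against Kv1.2. The second reversed to -0.39 without control replicate 1, and leaving out 1 library at a time moved the first between 3.27, without Kv1.2 replicate 1, and 5.21, without Kv1.2 replicate 2. The microglia markers themselves summed to 24420 and 2380 CPM in control, 34302 and 36140 CPM in Kv1.2, and 22579 and 47182 CPM in Kir2.1, with all 10 markers at or above 1 CPM in every library.

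Border-associated macrophage markers were highest in the Kir2.1 libraries, with sums of 1927 and 294 CPM there, 170 and 34.2 CPM in control, and 97.2 and 62.4 CPM in Kv1.2. Of the 8 markers, 2 were at 0 in Kv1.2 replicate 1 and 3 in replicate 2, among them Lyve1 and Cbr2 in both, and Cbr2 was at 0 in both control libraries too. The others were present, with Ms4a7 at 46.9 and 16.1 CPM and Stab1 at 49.6 and 9.36 CPM in Kv1.2. Dendritic cell markers summed to between 34.7 and 126 CPM in the 6 libraries, overlapping between groups, with 6 of 9 at 0 in each Kv1.2 library, among them Clec9a, Cd209a, Ccr7 and Clec10a in both. Batf3 carried most of the sum in all libraries but Kir2.1 replicate 1, at 58.6 and 24.2 CPM in control, 51.5 and 126 CPM in Kv1.2, and 0.725 and 81.8 CPM in Kir2.1, and Itgax reached 17.1 CPM in Kv1.2 replicate 1. B cell markers summed to 350 and 61.8 CPM in control, 738 and 947 CPM in Kv1.2, and 507 and 747 CPM in Kir2.1, with 2 of 7 at 0 in Kv1.2 replicate 1 and 1 of 7 in replicate 2.

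T cell markers moved with the class II genes in Kv1.2. The 6 markers summed to 1.69 and 0.359 CPM in control, 263 and 54.7 CPM in Kv1.2, and 6.34 and 0.634 CPM in Kir2.1, and the library with the highest class II level was again the highest. All 6 were detected in Kv1.2 replicate 1, while Cd4 and Trac were at 0 in replicate 2, which had 23.0 CPM of Cd3d and 30.2 CPM of Cd3g. Monocyte and neutrophil markers summed to 29.1 and 3.83 CPM in control, 159 and 26.0 CPM in Kv1.2, and 0.362 and 0.181 CPM in Kir2.1. In Kv1.2 replicate 1, Ccr2 was at 29.6, Ly6c2 at 34.1, S100a8 at 8.09 and S100a9 at 11.6 CPM, and only Ly6g was at 0. In control and Kir2.1, Ccr2 was at most 0.272 CPM and Ly6c2 at most 0.0996 CPM, whereas S100a8 ran from 3.83 to 28.8 CPM in control. In Kv1.2 replicate 2, with 65787 class II counts, Ccr2, Ly6c2, S100a8, S100a9 and Ly6g were at 0, and Plac8 made up the whole sum. Plac8 was at 75.9 and 26.0 CPM in Kv1.2, had 0 counts in both control libraries and in Kir2.1 replicate 1 and 1 count in Kir2.1 replicate 2, and its r with the mean of the members was 0.901. Activated microglia markers summed to 7693 and 7613 CPM in control, 12456 and 8467 CPM in Kv1.2, and 4018 and 8163 CPM in Kir2.1, nearly all of it Apoe. Within this list Cst7, the gene of cystatin F, had 0 and 0.120 CPM in control, 396 and 337 CPM in Kv1.2, and 25.4 and 44.3 CPM in Kir2.1, with an r of 0.932, and Clec7a, the gene of dectin-1, had 46.9 and 13.9 CPM in control, 274 and 279 CPM in Kv1.2, and 128 and 306 CPM in Kir2.1. By DESeq2 with adjustment, 2 of the 7 were higher and 1 was lower in Kv1.2 against control, beside 2.6% and 8.03% of all genes. In Kir2.1 against control 1 was higher, beside 2.61%. Clec7a, Plac8, Batf3, Ms4a7, Cst7, Stab1, Itgax, Cd3d and Cd3g were named after their values were seen. The levels of Ccr2, Ly6c2, S100a8 and S100a9 were also chosen after they were seen. The part of the cells behind these markers in the class II levels was not tested.

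**Figure D4:**
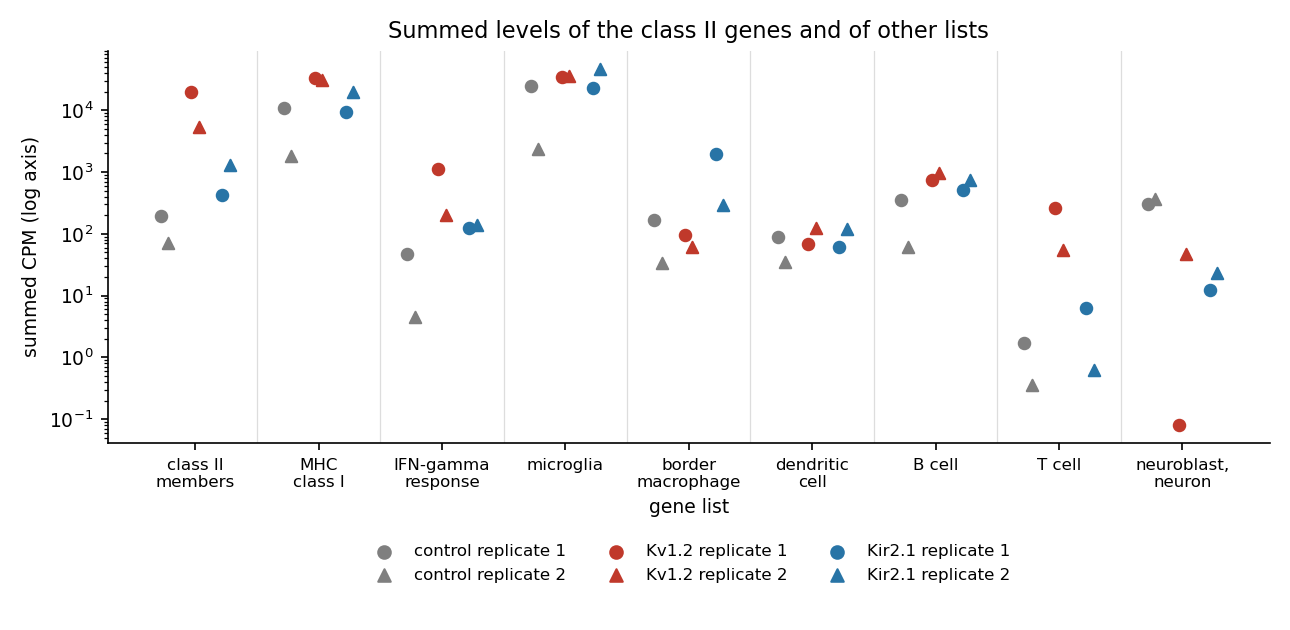
Summed CPM on a log axis (y axis) of the 7 class II genes and of 8 other gene lists (x axis) in each library, coloured by group with a shape for each replicate. The class II sums of Kv1.2 (19430 and 5355 CPM) lie above the other 4 libraries, as do those of MHC class I, interferon-gamma response and T cell markers. For the microglia markers Kv1.2 lies above control, and Kir2.1 overlaps both groups.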

How the data were processed

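RNA-seq was done on 6 libraries of sorted cells, 2 for each group. The authors aligned reads to GRCm38 with STAR 2.7.0f, removed low-quality and multi-mapping alignments with SAMtools 1.9 and built raw gene counts with Subread 1.6.4 per the submitters' notes, and these deposited counts, with the deposited gene lengths, were the only values used. Neither annotation release nor strand setting was found (not given in the sources used here). The library kit does not mark strand. Deposited CPM, FPKM and TPM tables and the authors' comparison tables, which hold fold changes, p-values and FDR, make up the 5 files not used here.

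Genes that reached 1 CPM in 2 or more libraries were scaled by TMM and fitted over all 6 libraries with edgeR 4.0.16 (R 4.3.3, quasi-likelihood test, Benjamini-Hochberg over all genes, threshold 0.05). The standard error was the log2 fold change over the square root of F. CPM use the TMM-scaled library size, and log2 CPM a prior count of 2. DESeq2 1.42.0, edgeR's likelihood ratio test, other scalings and minimums, a replicate block and leaving out each library were alternatives. One count was worth 0.0801 to 0.120 CPM, and floors of 3 counts cover counting error only. The named genes were the 7 members, up to 3 genes of each pathway list by mean CPM, markers at 0 counts, and the 10 genes of at least 10 mean CPM most like the members. The members and lists were chosen with earlier results of these data known. Figures were drawn with matplotlib 3.10.9. Some genes of the lists are not reported here.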

Additional observations from a re-analysis of the deposited data

How the results depend on the processing

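With 2 libraries a group, edgeR's quasi-likelihood test called 0 genes in all 3 comparisons, given here in the order Kv1.2 to control, Kir2.1 to control and Kir2.1 to Kv1.2. Unadjusted p values under 0.05 numbered 1479, 1154 and 746. DESeq2 called 1305, 987 and 642 genes, the likelihood ratio test 723, 225 and 68, and the quasi-likelihood test with no count minimum 138, 122 and 27. Leaving out 1 library gave 0 to 3, 0 to 11 and 0 to 0, the highest without control replicate 1. With DESeq2 and with no count minimum, Cd74, H2-Aa, H2-Ab1 and H2-Eb1 were called lower in Kir2.1 than in Kv1.2. The cause was not tested. The members' median moved over 6.40 to 8.64, 1.25 to 4.16 and -4.96 to -2.85 as libraries were left out. In Kir2.1 against control H2-Eb1 ran over -1.12 to 4.75 and H2-DMb1 over -0.98 to 3.35, both reversed without Kir2.1 replicate 2.

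The log2 ratio of members per 1000 microglia marker counts was 4.24, 0.56 and -3.68. With Cd74 alone the first was 5.41. With border-associated macrophage markers below the line the 3 were 6.42, -0.64 and -7.06. The leave-one-out values were 3.27 to 5.21, -0.39 to 1.51 and -4.65 to -2.71, and the second reversed to -0.39 without control replicate 1. These, and the pathway counts without a library, were chosen after seeing the data. The differences between replicates correlated across genes between groups with r of -0.0401 to 0.0131. These values show no strong shift shared by replicate number, and they cannot show whether same-numbered libraries were processed together. With the replicate block the medians were 8.63, 3.20 and -4.19 and 0 genes were called.

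Ciita, at 0 to 3 counts in 5 libraries, was too shallow to compare.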

Other observations

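The CD74 protein also acts as the receptor of macrophage migration inhibitory factor. Mif, the gene of this ligand, was at 86.9 and 657 CPM in control, 162 and 264 CPM in Kv1.2, and 103 and 166 CPM in Kir2.1, and was highest in a control library, where Cd74 was lowest. Ddt, the gene of the related ligand D-dopachrome tautomerase, had 0 and 106 CPM in control, 43.6 and 26.1 CPM in Kv1.2, and 21.5 and 34.7 CPM in Kir2.1. Cd44, the gene of the signalling partner of CD74, was found above 1 CPM in Kv1.2 replicate 1 with 59.1 CPM and in Kir2.1 replicate 1 with 27.4 CPM. It had 0 counts in Kv1.2 replicate 2, and in Kir2.1 it was higher in replicate 1, whereas Cd74 was higher in replicate 2. None of the 3 genes of this list that were tested had an unadjusted p under 0.05 by the edgeR test in any comparison.

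Genes that lower class II at the surface or mediate the IL-10 signal were measured as well. March1, a ubiquitin ligase that removes class II from the surface, had 22.5 and 0.838 CPM in control, 51.6 and 97.9 CPM in Kv1.2, and 84.2 and 86.3 CPM in Kir2.1. Both channel groups were above control and overlapped each other, unlike the class II members. Il10ra, a chain of the IL-10 receptor, was at 17.8 and 10.2 CPM in control, 107 and 22.2 CPM in Kv1.2, and 88.8 and 128 CPM in Kir2.1. It was the 1 gene of this list at an unadjusted edgeR p under 0.05, in Kir2.1 against control, where its log2 fold change was 2.95. Of all genes 3.25% were higher there at that threshold. Il10rb, the other chain, ran from 0.838 CPM in control replicate 2 to 227 CPM in Kir2.1 replicate 2.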
